A study of Mus musculus with 38 samples.

Results

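The transcriptome of BV2 cells taken from direct co-culture with GL261 glioma cells was compared between hypoxia and normoxia. BV2 is an immortalised line of mouse microglia, and GL261 is a mouse glioma line that here stably carried the pEGFP-N1 plasmid. GL261 cells were plated beforehand, BV2 cells were added at 1 BV2 cell per 2 GL261 cells, and the mixed culture was kept for 16 h at 21% O2 (normoxia) or below 0.1% O2 (hypoxia). Each oxygen level had 2 BV2 libraries, so that 4 of the 38 libraries of the series, chosen by their labels, make up the comparison. Another 4 BV2 libraries from cells grown alone at the same oxygen levels and time entered the same fit. They thus share in its filter, scaling and estimate of spread, and show where the co-cultured BV2 cells differed. Set against 4 libraries of GL261 grown alone, they also chose the genes used to measure GL261 RNA. A further 6 libraries of wild-type bone marrow-derived macrophages (BMDM), from co-culture with GL261 at 1 to 1, served only for comparison. The labels name no genetic change in BV2. How BV2 cells were parted from GL261 cells is not given in the sources used here, and every statement about BV2 rests on 1 cell line. The labels list the libraries of a group as biological replicates but tie them to no separate culture date, so the p-values measure the spread between these libraries.

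Cells sense oxygen through prolyl hydroxylases (Egln genes), which need oxygen to mark the alpha subunits of hypoxia-inducible factor (HIF) for destruction. Without oxygen HIF accumulates, binds a short core motif near its targets and raises genes of glucose uptake, glycolysis, iron handling and blood vessel growth. Oxygen is also the final acceptor of electrons when disulphide bonds are formed in the endoplasmic reticulum (ER), and unfolded proteins there start a stress response of chaperones and of the transcription factors ATF4, ATF6 and XBP1. Microglia are the resident macrophages of the brain, and together with infiltrating macrophages they make up much of the non-malignant cell mass of gliomas, whose cores are poorly oxygenated.

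Library totals of the 4 co-culture libraries were 13548843 and 18252443 counts in normoxia and 18516057 and 17732210 in hypoxia, where a floor of 3 counts stands for 0.162 to 0.221 CPM (counts scaled to library size). Transcripts that GL261 makes and BV2 does not were present at a low level. Over 230 genes specific to GL261, levels were set against those in GL261 monoculture. The median was 0.951% and 0.568% in the normoxic libraries and 2.07% and 2.36% in the hypoxic ones. In BV2 grown alone it was at most 0.0536%. The choice of genes fixed that low value in advance, since it asked for a 100-fold ratio over the same BV2 monocultures. The GL261 share was thus higher in both hypoxic co-culture libraries. In bulk libraries a change in the number of cells of a kind and a change in RNA per cell cannot be told apart. Genes at least 4-fold higher in GL261 than in BV2 monoculture at either oxygen level are called GL261-high below. For many of those named, the share of the hypoxic level that GL261 RNA at the measured share would supply is given beside the result.

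Markers were checked in the same libraries. The 26 genes listed for microglia and macrophages summed to 4737 and 4656 CPM in normoxia and to 5004 and 4848 CPM in hypoxia. In BV2 grown alone the sum went from 4743 and 4813 to 6276 and 6206 CPM. Of 23 tested in co-culture, 8 (34.8%) were higher and 10 (43.5%) lower, against 35.2% and 32.1% of all tested genes. Their median log2 fold change was -0.33, and 6 were lower by at least 2-fold. Cd68 stood at 738 and 755 CPM against 790.5 and 846 CPM. Csf1r, the receptor for colony-stimulating factor, stood at 585 and 505 against 748 and 704 CPM. Defining markers of microglia in the brain were nearly absent in both groups, since Siglech had 1 count over all 4 libraries, Sall1 had 0 and 0 counts in normoxia and 5 and 2 in hypoxia, and Tmem119 reached no more than 2.77 CPM. P2ry12, a purine receptor of resting microglia, fell from 5.46 and 5.39 to 1.61 and 1.92 CPM (log2 fold change -1.61 (SE 0.24, adjusted p = 2.46e-05)). Trem2, a lipid receptor of microglia, fell from 145 and 139 to 110.03 and 83.5 CPM. The 26 glioma and neural genes summed to 1128 and 977 CPM in normoxia and 2727 and 2675 CPM in hypoxia, mostly through Vim, which BV2 monoculture expressed as well (649 and 524 CPM in normoxia, 2640.03 and 2368 CPM in hypoxia). Sox2, a neural stem cell factor near 0 in BV2 alone, stood at 3.87 and 2.29 CPM and 13.5 and 17.1 CPM, and GL261 RNA would supply 83.6% of its hypoxic level. Of 18 genes of other cell types, which summed to 23.03 and 19.997 CPM in normoxia and 78.5 and 81.3 CPM in hypoxia, 13 were too low to test, 8 of them at 0 in all 4 libraries.

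**Figure D1:**
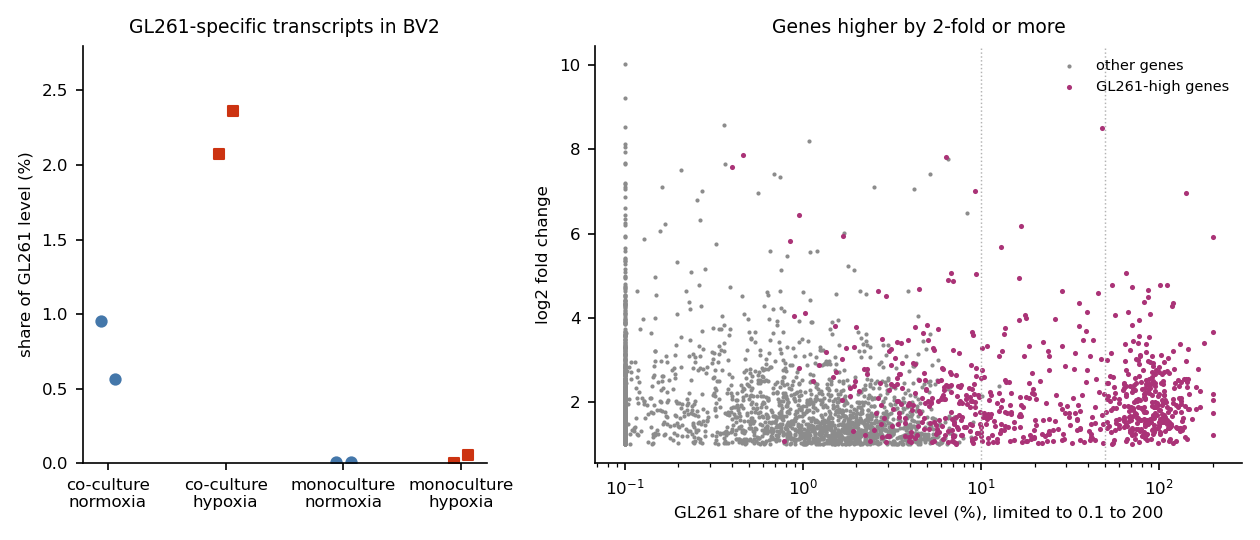
Left, the GL261 share of transcripts in each BV2 library, in percent of the level in GL261 monoculture. It was taken over genes chosen to be low in BV2 monoculture. Right, each gene at least 2-fold higher in hypoxia, with the share of its hypoxic level that GL261 RNA would supply on a log axis (percent, drawn from 0.1 to 200) and its log2 fold change on the other axis, and dotted lines at 10% and 50%. Both hypoxic co-culture libraries lie above 2% and both normoxic ones below 1%, and 2370 of the 2861 genes lie under the line at 10%.

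The change with oxygen was broad. Of 14432 genes tested with edgeR's quasi-likelihood test at an adjusted p of 0.05, 35.2% were higher and 32.1% lower in hypoxia, and 19.8% were higher by at least 2-fold and 15.4% lower by at least 2-fold. The libraries of the 2 oxygen levels did not overlap for 83.3% of tested genes. The counts of listed genes below are to be read against these shares. At 8-fold or more the change was uneven, with 385 genes higher and 74 lower. GL261-high genes made up 12.8% of the tested genes. They were 708 of the 2861 genes higher by at least 2-fold, 235 of the 2220 lower by at least 2-fold and 109 of the 385 higher by at least 8-fold. Their median log2 fold change was 0.65 in co-culture and 0.09 in BV2 monoculture, while that of the other genes in co-culture was -0.02. These medians depend on the choice of genes, since the flag uses the same monoculture levels. A gene could also enter the test through the 2 hypoxic co-culture libraries alone. For 320 of the genes higher by at least 2-fold, GL261 RNA would supply at least 50% of the hypoxic level.

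Among genes that had no predicted-gene name (Gm or Rik), were not GL261-high, had groups that did not overlap and had a mean CPM over the 4 co-culture libraries whose log2 was at least 4 (the expression limit), the 12 largest rises included Nos2, Ero1l, Trib3, Selenbp1, AC125101.1, Chd5, Angptl6, Ppp1r3b, Egln3, Ndrg1 and Ddit3. Nos2 (inducible nitric oxide synthase, which needs oxygen as a substrate; chr11:78920787-78960254, plus strand) had 5 and 6 counts in the normoxic libraries and 1936 and 2446 in the hypoxic ones, or 0.346 and 0.32 against 108 and 143 CPM. Ppp1r3b, a subunit that directs protein phosphatase 1 to glycogen, stood at 5.19 and 6.29 and 165 and 192 CPM (log2 fold change 4.95 (SE 0.15, adjusted p = 1.64e-12)). Chd5, a chromatin remodeller known from neurons, stood at 3.46 and 3.15 and 131 and 133 CPM (log2 fold change 5.32 (SE 0.15, adjusted p = 1.32e-12)), and GL261 RNA would supply 0.196% of its hypoxic level. For Selenbp1, a methanethiol oxidase measured at 12.7 and 19.3 and 835 and 1125 CPM, 32.9% of its sequence recurs in another gene, so its reads may be shared. In each of these genes both hypoxic libraries lay far above both normoxic ones.

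Under the same limits the largest falls were in Hmgb3, Ankle1, Apobec1, Gart, Rab3il1, Cacybp, Dnph1, Elovl6, Cenpv, Nop10, Cfap298 and the unnamed gene AC121821.1. Apobec1, a cytidine deaminase that edits messenger RNA (chr6:122577792-122602444, minus strand), stood at 53.5 and 62 CPM in normoxia and 5.57 and 5.02 CPM in hypoxia (log2 fold change -3.45 (SE 0.15, adjusted p = 8e-11)). Elovl6, which elongates long-chain fatty acids, fell from 81.1 and 94.5 to 11.7 and 8.52 CPM (log2 fold change -3.12 (SE 0.16, adjusted p = 2.98e-10)). Nop10, a component of box H/ACA ribonucleoproteins and telomerase, fell from 76.1 and 85.2 to 10.2 and 9.39 CPM. In these 3 genes both hypoxic libraries lay below 12 CPM and both normoxic ones above 50 CPM. GL261 RNA would supply 6.78% of the hypoxic level of Elovl6, 1.97% of that of Apobec1 and 2.81% of that of Nop10.

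**Figure D2:**
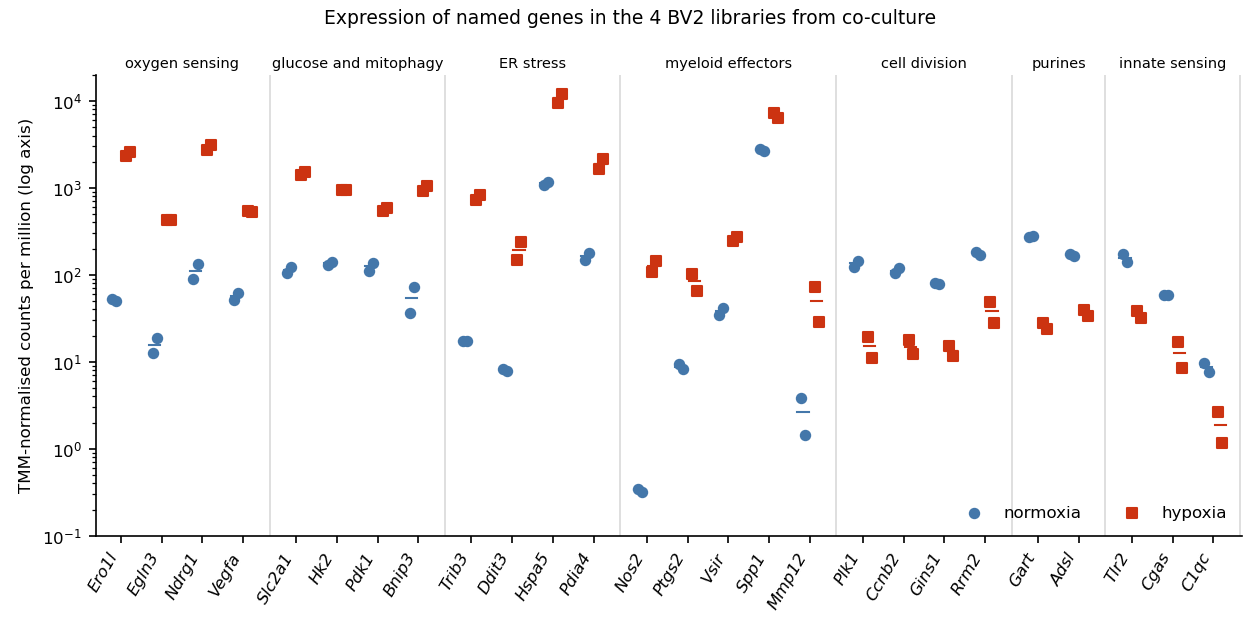
Level of selected genes in each co-culture BV2 library, in CPM on a log axis, with blue circles for normoxia, red squares for hypoxia and short lines for the group means. Genes of oxygen sensing and ER stress lie higher in both hypoxic libraries, with Ero1l at 52.9 and 50.5 CPM in normoxia and 2297 and 2557 CPM in hypoxia, and genes of replication and purine synthesis lie lower.

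Genes of the HIF system rose together. Of 22 tested members among 24, 19 were higher and 2 lower in hypoxia, 17 of them higher by at least 2-fold, and the median log2 fold change was 2.45 against 0.04 over all tested genes. Ero1l, the oxidase that passes electrons from disulphide formation to oxygen (chr14:45283087-45318771, minus strand), stood at 52.9 and 50.5 CPM in normoxia and 2297 and 2557 CPM in hypoxia, 47-fold higher (log2 fold change 5.55 (SE 0.15, adjusted p = 1.32e-12)). Egln3, an oxygen-sensing prolyl hydroxylase that HIF itself induces (chr12:54178981-54203860, minus strand), stood at 12.6 and 19 and 424 and 428 CPM (log2 fold change 4.74 (SE 0.16, adjusted p = 6.55e-12)). Ndrg1, a stress-responsive gene of the same system, stood at 89.9 and 133 and 2761 and 3104 CPM. Both hypoxic libraries lay above both normoxic libraries in all 3 genes, and the gaps between replicates were small beside the gap between groups. Ankrd37, a small ankyrin repeat protein, went from 9.61 and 17.6 to 182 and 251 CPM, and P4ha1, the collagen prolyl hydroxylase subunit, from 85.5 and 83.2 to 447 and 444 CPM (log2 fold change 2.40 (SE 0.12, adjusted p = 1.6e-10)). Vegfa, the secreted growth factor for blood vessels, went from 51.8 and 62.6 to 548 and 522 CPM, 9.36-fold higher. The 2 members that were lower were Car12, a membrane carbonic anhydrase (53.3 and 56.1 against 11.8 and 8.46 CPM, log2 fold change -2.43 (SE 0.15, adjusted p = 1.2e-09)), and Egln2, an oxygen sensor that moved little (36.2 and 35.2 against 28 and 27.9 CPM, adjusted p = 0.0133, not called when either normoxic library was left out). Ddit4, an inhibitor of growth signalling that is GL261-high, went from 9.96 and 18.6 to 194 and 289.9 CPM, of which GL261 RNA would supply 17.7%.

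HIF binds short cores that include ACGTG, and only ACGTG was searched here. Stretches before the RefSeq start of 4 of the genes that rose are shown because each holds ACGTG, in capitals. They are the RefSeq sequences of build GRCm38 within the 250 bases before the RefSeq start, read 5′ to 3′ on the strand of the gene and shortened where they met an annotated exon. The stretch of Ero1l lies within the gene span given above, which begins further upstream on the minus strand than this RefSeq start. A core that lies on the opposite strand reads CACGT.
Ero1l (chr14:45318573-45318702, minus strand): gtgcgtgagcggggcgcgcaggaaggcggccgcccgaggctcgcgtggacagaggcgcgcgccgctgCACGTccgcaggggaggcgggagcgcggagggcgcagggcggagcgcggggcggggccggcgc
Egln3 (chr12:54203875-54204124, minus strand): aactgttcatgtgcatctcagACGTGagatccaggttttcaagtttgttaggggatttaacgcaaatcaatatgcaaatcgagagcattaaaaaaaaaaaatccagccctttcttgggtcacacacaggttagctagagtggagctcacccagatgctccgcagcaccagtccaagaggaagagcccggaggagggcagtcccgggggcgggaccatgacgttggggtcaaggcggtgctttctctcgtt
Ankrd37 (chr8:45999868-46000100, minus strand): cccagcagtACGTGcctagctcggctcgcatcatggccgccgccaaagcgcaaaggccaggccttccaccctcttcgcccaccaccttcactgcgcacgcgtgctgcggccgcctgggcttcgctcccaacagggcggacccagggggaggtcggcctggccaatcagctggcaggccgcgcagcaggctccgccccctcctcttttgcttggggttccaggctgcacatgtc
P4ha1 (chr10:59323046-59323295, plus strand): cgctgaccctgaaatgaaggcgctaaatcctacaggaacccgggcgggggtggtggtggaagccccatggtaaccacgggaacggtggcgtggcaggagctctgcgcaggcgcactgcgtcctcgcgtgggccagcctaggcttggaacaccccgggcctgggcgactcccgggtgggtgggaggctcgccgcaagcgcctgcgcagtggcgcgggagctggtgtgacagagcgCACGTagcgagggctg
Searched on both strands, the core ACGTG was found for 14 of 21 members of the HIF list that had a RefSeq promoter, or 66.7%. A gene counted if the 250 bases before any of its RefSeq starts held the core. Counted in this way it was found for 25.4% of 10227 tested genes with a promoter. Of all 32841 promoter windows, counted singly and so not like the gene shares, 16.6% held it. A match describes the letters only, and binding was not measured.

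Glucose uptake and glycolysis genes rose as a group, with 21 of 24 higher and 2 lower, 15 higher by at least 2-fold, and a median log2 fold change of 1.20. Slc2a1, the glucose transporter GLUT1, stood at 106 and 124 CPM in normoxia and 1412 and 1526 CPM in hypoxia (log2 fold change 3.67 (SE 0.13, adjusted p = 1.2e-11)). Hk2, the hexokinase that traps glucose in the cell, stood at 131 and 142 and 937 and 933 CPM, and Pfkp, a phosphofructokinase, at 195 and 205 and 1223 and 1321 CPM. Pkm, pyruvate kinase, was the most abundant member, at 3044 and 3346 and 8002 and 7825 CPM (log2 fold change 1.31 (SE 0.13, adjusted p = 2.04e-07)). The groups did not overlap in any of these 4 genes. For Pgk1, Pgam1, Gapdh and Eno1 between 42.4% and 62.5% of the sequence recurs in other genes, so their values are uncertain. Slc16a1, the lactate and pyruvate transporter MCT1, fell from 287 and 265 to 142 and 103 CPM (log2 fold change -1.17 (SE 0.14, adjusted p = 2.76e-06)), and Pfkfb4 fell slightly, from 24.1 and 27.2 to 21.3 and 19.5 CPM (adjusted p = 0.0335, not called without the second library of either group or by DESeq2).

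Nuclear genes of the respiratory chain moved the other way, with 25 of 27 tested members lower, none higher, 6 lower by at least 2-fold, and a median log2 fold change of -0.74. Ndufs8, an iron-sulphur subunit of complex I, fell from 114 and 147 to 30.4 and 40.3 CPM (log2 fold change -1.88 (SE 0.17, adjusted p = 6.64e-08)). Cox5a, a subunit of cytochrome oxidase, fell from 203 and 205 to 82.9 and 67.3 CPM, and Cyc1, the cytochrome of complex III, from 269 and 305 to 108 and 114 CPM. The abundant Atp5b of the ATP synthase moved least among those named, from 908 and 934 to 756 and 702 CPM (log2 fold change -0.34 (SE 0.12, adjusted p = 0.0183)), and was not called without the second normoxic library. Messenger RNAs made in the mitochondrion itself showed no such fall. Of 12 tested, 3 were higher, 1 lower and 8 not called, none by 2-fold, and their median log2 fold change was 0.13. The member that was lower was mt-Cytb, at 4933 and 5075 and 3165 and 4070.3 CPM (adjusted p = 0.0145), and it was not called without the first hypoxic or the second normoxic library. Without the second hypoxic library, 0 of the 12 were called higher and 3 lower. Among 18 genes of mitophagy and cell death 10 were higher and 4 lower. Bnip3, a mitophagy receptor of the outer mitochondrial membrane, went from 36.4 and 73.2 to 929.9 and 1064 CPM (log2 fold change 4.18 (SE 0.23, adjusted p = 5.22e-10)), its relative Bnip3l from 52.3 and 70.8 to 349.97 and 350.3 CPM and the kinase Pink1 from 15.2 and 19.6 to 88.4 and 102 CPM. The pro-apoptotic genes Bid (97.4 and 81.5 to 29.96 and 23.9 CPM), Bak1 and Bax fell.

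All 21 genes of the unfolded protein and integrated stress response were higher in hypoxia, 19 by at least 2-fold, with a median log2 fold change of 2.92 in co-culture and 2.08 in BV2 monoculture. Trib3, a pseudokinase target of ATF4 and CHOP (chr2:152337422-152344032, minus strand), rose from 17.4 and 17.2 to 719.7 and 824 CPM (log2 fold change 5.48 (SE 0.18, adjusted p = 4.14e-12)). Ddit3, which encodes the transcription factor CHOP, rose from 8.37 and 7.84 to 149.96 and 237 CPM (log2 fold change 4.58 (SE 0.22, adjusted p = 1.6e-10)). Herpud1, which helps remove misfolded proteins from the ER, rose from 68.7 and 85.6 to 1302 and 1604 CPM. Both hypoxic libraries lay well above both normoxic ones in each, and the second hypoxic library was the higher of the pair in all 3 genes. Hspa5, the chief chaperone of the ER (BiP; chr2:34771970-34777547, plus strand), was the most abundant member and rose from 1081 and 1175 to 9539 and 11958 CPM, 9.53-fold (log2 fold change 3.25 (SE 0.18, adjusted p = 4.1e-10)). Hsp90b1, the ER form of HSP90, rose from 566 and 568 to 3844 and 4732 CPM. The disulphide isomerases Pdia4 (148 and 179.6 to 1639.7 and 2122 CPM) and Pdia6 (396 and 470.02 to 1709 and 2320.2 CPM) and the chaperone cofactor Creld2 (84.9 and 91 to 690.4 and 908 CPM) rose as well. Calr, the lectin chaperone calreticulin, went from 1809 and 2224 to 6239.8 and 8056 CPM (log2 fold change 1.83 (SE 0.17, adjusted p = 9.13e-08)).

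Many ER chaperone genes carry the ER stress response element, CCAAT and CCACG held 9 bases apart, and the upstream stretches of 4 members are shown with the element in capitals. They come from RefSeq on GRCm38 within the 250 bases before the start, 5′ to 3′ on the gene's strand, shortened at annotated exons. On the opposite strand the element reads CGTGG, 9 bases, then ATTGG.
Creld2 (chr15:88819396-88819645, plus strand): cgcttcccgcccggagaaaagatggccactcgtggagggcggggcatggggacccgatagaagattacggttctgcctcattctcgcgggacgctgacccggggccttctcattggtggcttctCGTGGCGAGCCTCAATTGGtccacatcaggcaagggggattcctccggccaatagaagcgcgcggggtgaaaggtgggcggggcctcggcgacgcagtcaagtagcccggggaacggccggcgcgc
Hsp90b1 (chr10:86705510-86705694, minus strand): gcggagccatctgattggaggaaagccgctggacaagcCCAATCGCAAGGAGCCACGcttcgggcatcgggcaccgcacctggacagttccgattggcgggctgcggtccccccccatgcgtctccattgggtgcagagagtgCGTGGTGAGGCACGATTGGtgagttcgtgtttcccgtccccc
Pdia6 (chr12:17266339-17266544, plus strand): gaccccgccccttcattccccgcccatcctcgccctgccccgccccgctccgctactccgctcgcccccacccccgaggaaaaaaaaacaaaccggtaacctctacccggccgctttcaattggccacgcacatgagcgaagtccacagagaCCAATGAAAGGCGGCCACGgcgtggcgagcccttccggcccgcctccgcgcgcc
Calr (chr8:84846935-84847181, minus strand): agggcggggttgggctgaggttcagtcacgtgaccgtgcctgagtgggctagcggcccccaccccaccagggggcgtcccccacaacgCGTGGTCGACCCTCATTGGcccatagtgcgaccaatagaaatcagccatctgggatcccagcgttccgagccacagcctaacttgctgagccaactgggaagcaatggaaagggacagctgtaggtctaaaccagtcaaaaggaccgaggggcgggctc
The element, searched on both strands before any RefSeq start of a gene, was found for 5 of 21 genes of this list, or 23.8%. These were Hspa5, Hsp90b1, Pdia6, Creld2 and Calr. It was found for 0 of 21 of the HIF list and 0.186% of tested genes with a promoter. Of all windows, counted singly, 0.113% held it. The core ACGTG was found for 7 of the 21 genes, and its letters can overlap those of CCACG on the opposite strand.

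The rise of several of these chaperones was larger in co-culture than in BV2 grown alone. The difference of the hypoxia effect between the cultures was called for 2.19% of tested genes, and 7 of the 21 stress response genes were among them, all with the larger rise in co-culture. Hspa5 in monoculture rose from 1119.7 and 1411 to 4690.3 and 5975 CPM, so the normoxic levels of the cultures were near each other and the hypoxic level was higher in co-culture (difference of log2 fold changes 1.18, SE 0.23, adjusted p = 0.0216). Pdia4 in monoculture went from 177 and 198 to 682 and 989.8 CPM (difference 1.36, SE 0.24, adjusted p = 0.0141). Hsp90b1 in monoculture went from 626 and 769 to 1785 and 2520.2 CPM (difference 1.29, SE 0.23, adjusted p = 0.0141). For these chaperones both hypoxic co-culture libraries lay above both hypoxic monoculture libraries. Creld2, Pdia6, Sdf2l1 and Asns, the asparagine synthetase, made up the other 4, with adjusted p between 0.032 and 0.0477, while Calr missed the threshold (adjusted p = 0.0504). The difference was called for Hspa5, Pdia4 and Hsp90b1 whichever co-culture library was left out. Of the 7 genes 6 were called without the first hypoxic library, 3 without the second hypoxic, 3 without the first normoxic and 4 without the second normoxic one. Single monoculture libraries mattered as well: of the 7 only Pdia4 was called without the first hypoxic monoculture library, 3 (Pdia4, Hsp90b1 and Asns) without the second normoxic one, and 6, all but Asns, without either of the others. Pdia4 was the one gene of the 7 called whichever of the 8 libraries was left out. The difference was also lost by DESeq2 for Creld2, with genes under a mean CPM of 5 dropped or GL261 counts subtracted for Pdia6 and Asns, and with DESeq2 size factors or GL261-high genes left out for Asns. GL261 RNA would supply 0.743% of the hypoxic level of Hspa5, 0.51% of that of Pdia4 and 0.62% of that of Hsp90b1. Trib3 and Ddit3, members of the same list, showed differences of 0.43 and 0.08 that were not called.

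Genes of cell division fell throughout. All 32 genes of DNA replication were lower, 28 of them by at least 2-fold, with a median log2 fold change of -1.60. All 22 genes of mitosis were lower, 20 by at least 2-fold, with a median of -1.84, and 8 of the 22 are GL261-high. Of the 24 genes of recombination, Fanconi and mismatch repair, 20 were lower and 1 higher, with a median of -1.11. Gins1, a subunit of the replicative helicase, fell from 80.7 and 77.7 to 15.1 and 11.8 CPM (log2 fold change -2.56 (SE 0.14, adjusted p = 5.3e-10)). Tyms, thymidylate synthase, fell from 135 and 129 to 33.2 and 23.7 CPM, and Mcm3, a ring subunit of the same helicase, fell less, from 469 and 482 to 229 and 161 CPM. In mitosis Ccnb2, a B-type cyclin, fell from 105 and 119.5 to 17.7 and 12.1 CPM (log2 fold change -2.91 (SE 0.16, adjusted p = 5.58e-10)). Plk1, the polo-like kinase, fell from 125 and 146 to 19.2 and 11 CPM and is GL261-high, with GL261 RNA able to supply 24.8% of the hypoxic level. Mki67, which encodes the proliferation antigen Ki-67 and is GL261-high, went from 603 and 623 to 446 and 253 CPM, with the hypoxic libraries apart from each other.

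Among repair genes Fanca, of the Fanconi core complex, fell from 77 and 74.8 to 11.9 and 9.16 CPM (log2 fold change -2.85 (SE 0.14, adjusted p = 1.86e-10)), and Exo1, an exonuclease of mismatch repair and end resection, from 66.3 and 62.8 to 18.3 and 12.5 CPM. The member that rose was Msh6, the mismatch recognition subunit, at 133 and 126 CPM in normoxia and 235 and 219.96 CPM in hypoxia (log2 fold change 0.81 (SE 0.12, adjusted p = 1.66e-05)). Of 14 genes that govern entry into S phase 4 were higher and 6 lower. Cdkn1a, the kinase inhibitor p21, rose from 43.8 and 54.9 to 614 and 608 CPM (log2 fold change 3.63 (SE 0.13, adjusted p = 1.2e-11)), and Cdkn1b, p27, rose from 23.7 and 24.8 to 116 and 141 CPM. Ccne1, cyclin E1, fell from 47.7 and 43.6 to 11.9 and 10.8 CPM. These inhibitors were thus higher, and this cyclin lower, in both hypoxic libraries than in either normoxic one.

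Purine synthesis and one-carbon genes were mostly lower, 14 of 20 with 3 higher and a median log2 fold change of -1.25. Gart, the enzyme with 3 activities in purine synthesis, fell from 269 and 283 to 27.7 and 23.6 CPM (log2 fold change -3.42 (SE 0.12, adjusted p = 1.01e-11)). Adsl, adenylosuccinate lyase, fell from 172 and 163 to 39.4 and 33.4 CPM, and Pfas, which acts between the steps of Gart, from 130.2 and 124 to 38.6 and 27.7 CPM. Neither hypoxic library reached 40 CPM for any of these 3 enzymes, and the groups lay far apart. Those that rose were Mthfd1l, the mitochondrial enzyme that releases formate (70.2 and 77.2 to 266 and 245 CPM, log2 fold change 1.79 (SE 0.11, adjusted p = 1.52e-09)), Impdh1 (34.2 and 44.1 to 97 and 99.5 CPM) and Mthfd2 (123 and 119 to 159.9 and 163 CPM, not called without the second library of either group).

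**Figure D3:**
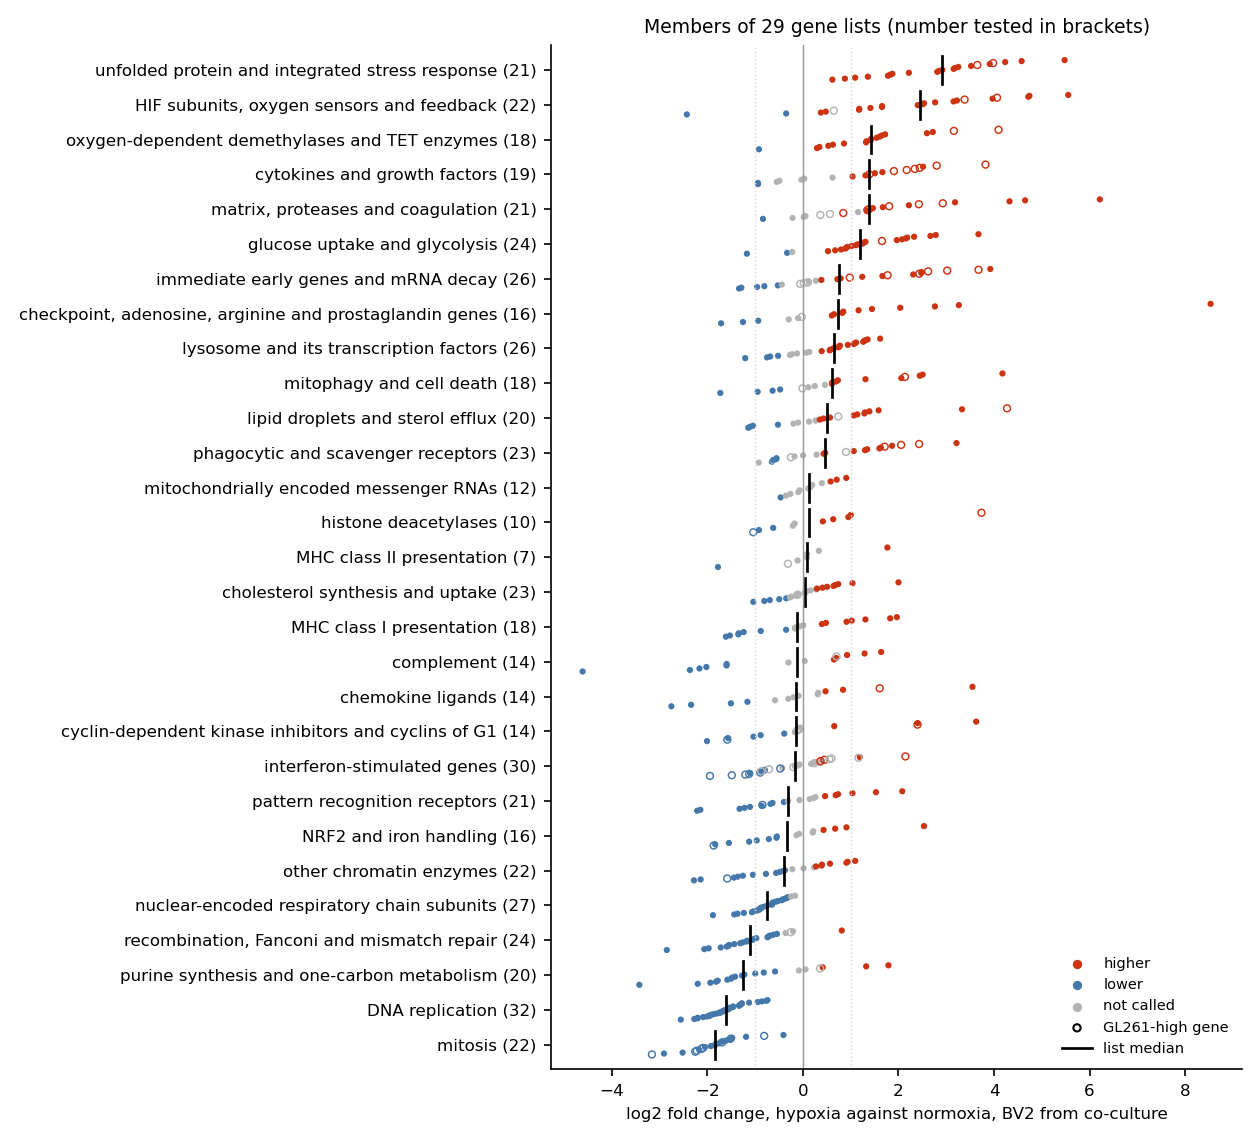
Log2 fold change, hypoxia over normoxia, of each tested member of 29 gene lists in co-cultured BV2 cells, with red for called higher, blue for called lower, grey for not called, open symbols for GL261-high genes and a black line at the list median. The stress response list lies wholly above 0 (median 2.92), the replication and mitosis lists wholly below 0 (medians -1.60 and -1.84), and the interferon list around 0 (median -0.16).

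Lipid and redox genes split within their lists. Of 20 genes of lipid droplets and sterol efflux 11 were higher and 4 lower, with a median of 0.50. Hilpda, a HIF target that inhibits lipolysis at lipid droplets, rose from 11.8 and 13.3 to 112 and 141 CPM (log2 fold change 3.33 (SE 0.15, adjusted p = 1.08e-10)), and Plin2, a droplet coat protein, rose from 92.3 and 94.6 to 265 and 296 CPM. The fatty acid binding proteins Fabp4 (108 and 123 to 55.6 and 56.3 CPM) and Fabp5 (351 and 404 to 169 and 172 CPM) fell. Their fall was larger than in monoculture, where Fabp4 went from 79.6 and 77.8 to 85.3 and 63.4 CPM (difference -0.96, SE 0.19, adjusted p = 0.0217). Neither difference was called without the second normoxic library of either culture, and that of Fabp5 was also not called without the first hypoxic monoculture library. The 23 cholesterol genes had 8 higher, 5 lower and a median of 0.05, with Insig2, which retains the sterol sensor in the ER, the largest rise (26.7 and 23.7 to 104 and 97.6 CPM). Without the first normoxic or the first hypoxic library 5 of these cholesterol genes were called higher in place of 8.

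Of 16 genes of NRF2 and iron handling 4 were higher and 8 lower. Hmox1, heme oxygenase, which needs oxygen to break down heme, rose from 234 and 223 to 1373 and 1272 CPM (log2 fold change 2.53 (SE 0.12, adjusted p = 1.62e-10)). The glutathione genes Gsr (74.5 and 70.9 to 21 and 19.7 CPM) and Gclm (104 and 76.8 to 34.8 and 26.7 CPM) fell. Fth1, ferritin heavy chain, fell from 3220.2 and 3137 to 1995 and 1885 CPM. Hmox1 thus went against the other NRF2 targets named.

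Innate sensing genes moved in both directions, with 6 of 21 pattern recognition genes higher and 10 lower and a median of -0.31. Tlr2, a receptor for bacterial lipoproteins, fell from 173 and 140.4 to 38.8 and 31.8 CPM (log2 fold change -2.15 (SE 0.15, adjusted p = 4.08e-09)). Cgas, the sensor of cytosolic DNA, fell from 58.9 and 58.7 to 16.8 and 8.52 CPM, and the adaptor Myd88 fell from 87.3 and 90.9 to 33.8 and 37.3 CPM. Tlr6, the partner of Tlr2, rose from 14.1 and 14.5 to 62.1 and 58.9 CPM (log2 fold change 2.08 (SE 0.12, adjusted p = 7.93e-10)), and Tlr4, the receptor for lipopolysaccharide, rose from 25.7 and 25.7 to 71.4 and 76.5 CPM. So Tlr2 and Tlr6, which act as a pair, moved in opposite directions, and the libraries of the 2 groups overlapped for neither gene.

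Interferon-stimulated genes showed little common movement: 4 of 30 were higher, 10 lower and 16 not called, with a median of -0.16, and 17 of the 30 are GL261-high. Samhd1, which breaks down deoxynucleotides, fell from 218 and 221 to 119.7 and 117 CPM (log2 fold change -0.89 (SE 0.11, adjusted p = 2.15e-06)), and Rsad2, viperin, rose from 6.22 and 5.81 to 13.8 and 13.7 CPM. Leaving out the GL261-high genes left 1 called higher and 5 called lower, and 2 were called higher without the first hypoxic or the second normoxic library. Of 18 genes of MHC class I presentation 7 were higher and 7 lower. The immunoproteasome subunits Psmb8 (109.5 and 104 to 43 and 40.7 CPM) and Psmb10 (61.9 and 63.9 to 19.3 and 21.9 CPM) and the peptide-trimming Erap1 fell, while the loading chaperones Calr and Pdia3 (639.7 and 714 to 2289.9 and 2994 CPM), both resident in the ER, rose. In class II presentation 7 of 11 genes could be tested. Cd74, the invariant chain, rose from 169.6 and 179 to 549.5 and 639 CPM (log2 fold change 1.77 (SE 0.12, adjusted p = 4.23e-09)) and was the 1 member higher. The 1 member lower, Ciita, the master regulator of these genes, was near the floor (20 and 9 against 7 and 2 counts) and was not called by DESeq2 or without the first normoxic or the second hypoxic library.

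Among secreted signals, 12 of 19 tested cytokines and growth factors were higher and 2 lower, and 7 of the 12 are GL261-high. Spp1, osteopontin, was the most abundant and rose from 2803 and 2650.2 to 7213 and 6295 CPM (log2 fold change 1.31 (SE 0.13, adjusted p = 2.65e-07)), of which GL261 RNA would supply 0.00182%. Gdf15, a stress cytokine that is GL261-high, rose from 8.92 and 9.39 to 67.7 and 60.02 CPM, with 6.12% from GL261 at the measured share. Angptl4 had 1 and 1 counts in normoxia and 17 and 16 in hypoxia, and GL261 RNA would supply 70.6% of the hypoxic level. Tgfb1, the transforming growth factor, fell from 181 and 163 to 105 and 74.5 CPM (log2 fold change -0.94 (SE 0.14, adjusted p = 1.93e-05)). Without the first hypoxic library 5 of these genes were called lower in place of 2. Of 23 chemokine ligands 14 could be tested, 4 higher and 4 lower. Ccl2, which draws monocytes, fell from 36.7 and 21.2 to 4.9 and 3.62 CPM (log2 fold change -2.75 (SE 0.26, adjusted p = 1.6e-07)), while the abundant Ccl3 rose from 449 and 404 to 606 and 579 CPM. Cxcl10, an interferon-induced chemokine, went from 4.84 and 3.57 to 15.6 and 9.8 CPM, of which GL261 RNA would supply 59.9%. With the GL261 counts subtracted its log2 fold change went from 1.61 to 0.35 and was no longer called.

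Of 16 tested genes of immune checkpoints, adenosine, arginine and prostaglandins 10 were higher and 3 lower, with a median of 0.74. Vsir, the checkpoint ligand VISTA, rose from 34.9 and 41.1 to 243 and 273 CPM (log2 fold change 2.76 (SE 0.13, adjusted p = 1.22e-10)). Ptgs2, the cyclooxygenase COX-2, rose from 9.47 and 8.16 to 103 and 66 CPM (log2 fold change 3.26 (SE 0.23, adjusted p = 5.3e-09)). Lgals3, galectin-3, rose from 632 and 660.3 to 1684 and 1834 CPM. The adenosine receptors Adora2b (4.01 and 4.05 to 1.17 and 1.28 CPM) and Adora2a fell from low levels. GL261 RNA would supply at most 0.807% of the hypoxic level of Vsir, Ptgs2 and Lgals3.

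Lysosomal genes were mostly higher, 17 of 26 with 4 lower and a median of 0.64. Gpnmb, a glycoprotein of lysosomes in activated phagocytes, rose from 2747 and 2757 to 7026 and 7036 CPM (log2 fold change 1.35 (SE 0.13, adjusted p = 1.13e-07)). Npc1, which exports cholesterol from the lysosome, rose from 122 and 109.6 to 381 and 329 CPM, and the protease Ctsa rose from 837 and 859 to 2073 and 2128 CPM. Tfeb, the transcription factor that drives lysosomal genes, fell from 34.9 and 42.5 to 16.5 and 17.1 CPM (log2 fold change -1.21 (SE 0.14, adjusted p = 1.88e-06)). The factor thus moved against the majority of the listed genes.

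Of 23 tested phagocytic and scavenger receptors 12 were higher and 4 lower. Mfge8, which bridges dying cells to phagocytes, rose from 250.1 and 224 to 612 and 592 CPM (log2 fold change 1.34 (SE 0.11, adjusted p = 3.12e-08)). Mrc1, the mannose receptor, fell from 16.9 and 13.1 to 11.1 and 7.87 CPM, a fall not called without the first normoxic or the second hypoxic library. Without the first normoxic library 2 of these receptors were called lower in place of 4. Axl and Megf10, receptors for dying cells, are GL261-high. Axl went from 6.36 and 3.68 to 24 and 17.1 CPM, with 73.8% of the hypoxic level from GL261 at the measured share, and Megf10 from 0.83 and 0.747 to 3.45 and 5.07 CPM, with 88.2%. Of 14 tested complement genes 5 were higher and 6 lower. C1qc, a chain of the complement starter C1q, fell from 9.61 and 7.58 to 2.62 and 1.17 CPM (log2 fold change -2.17 (SE 0.31, adjusted p = 1.26e-05)), and its partner C1qa had 16 and 12 counts in normoxia and 0 and 1 in hypoxia. Without the first hypoxic library 2 complement genes were called higher, and without the second normoxic one 3.

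Matrix, protease and coagulation genes rose in 14 of 21 tested cases with 1 fall and a median of 1.38, and 6 of the 14 are GL261-high. Plau, the urokinase plasminogen activator, fell from 98.1 and 82.6 to 54.7 and 46.3 CPM (log2 fold change -0.84 (SE 0.12, adjusted p = 1.99e-05)). Mmp12, macrophage elastase, went from 3.8 and 1.44 to 72.1 and 28.6 CPM with wide spread in each group (log2 fold change 4.32 (SE 0.47, adjusted p = 6.01e-07)), and Mmp13, a collagenase, had 1 and 3 counts in normoxia and 183 and 148 in hypoxia. Both were listed at 0 CPM in hypoxic GL261 monoculture.

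Immediate early and mRNA decay genes were higher in 15 of 26 cases and lower in 5, 6 of the 15 being GL261-high. Ier3, a short-lived survival gene, rose from 31.3 and 36.2 to 486 and 538 CPM (log2 fold change 3.92 (SE 0.15, adjusted p = 1.44e-11)), and Jun, an AP-1 subunit, rose from 96.1 and 124 to 691 and 535 CPM. Egr3, a growth-response factor, fell from 13.3 and 11.5 to 6.18 and 3.91 CPM, as did the phosphatase Dusp2 (36.7 and 45.3 to 15.4 and 17.1 CPM). Without the second hypoxic library 3 of these genes were called lower in place of 5. Among chromatin genes, the demethylases and TET enzymes, which use oxygen, rose in 17 of 18 tested cases with a median of 1.42. Kdm6b, which removes methyl groups from lysine 27 of histone H3 and is GL261-high, rose from 12.1 and 14.9 to 133 and 109 CPM, of which GL261 RNA would supply 7.52%. Kdm4b, which acts on lysine 9, rose from 22.9 and 29.3 to 174 and 171 CPM (log2 fold change 2.72 (SE 0.13, adjusted p = 1.65e-10)), and Kdm2b was the member that fell (47.9 and 45.2 to 27.2 and 21.9 CPM). Tet1 had 2 and 1 counts in normoxia and 24 and 34 in hypoxia, and GL261 RNA would supply 89.2% of the latter.

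Of 10 tested histone deacetylases 5 were higher and 3 lower, with a median of 0.12. Hdac7, which is GL261-high, rose from 1.45 and 1.55 to 18.8 and 21.5 CPM (log2 fold change 3.74 (SE 0.23, adjusted p = 1.67e-09), 5.74% from GL261 at the measured share), and Hdac5 rose from 69.8 and 84.9 to 162 and 148 CPM. The class I enzymes Hdac1 (109 and 111 to 69.99 and 73 CPM) and Hdac2 (100.1 and 94.4 to 43.8 and 50.8 CPM) fell. Of 22 other chromatin enzymes 7 were higher and 12 lower. Uhrf1, which recruits the maintenance DNA methyltransferase, fell from 337 and 321 to 93.7 and 55.2 CPM (log2 fold change -2.14 (SE 0.18, adjusted p = 2.76e-08)), and the histone methyltransferase gene Suv39h1 fell from 67.1 and 72.7 to 18.3 and 10.4 CPM. The acetyltransferase gene Ep300 rose from 121 and 108 to 269.7 and 218 CPM. Without the second hypoxic library 4 of these enzymes were called higher in place of 7.

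Of GL261-high genes above the expression limit (a log2 of at least 4 for the mean CPM) and with groups that did not overlap, the 6 with the largest rise were Mpp2, Arrdc3, Ddit4, Wipi1, Fam214b and Kcnk2. Mpp2 stood at 0.415 and 0.8 CPM in normoxia and 32.2 and 33.3 CPM in hypoxia (log2 fold change 5.68 (SE 0.22, adjusted p = 2.03e-11)), and Arrdc3, an arrestin domain protein, at 1.24 and 2.4 and 57.1 and 55.4 CPM. GL261 RNA would supply 12.9% and 6.53% of these hypoxic levels. In BV2 grown alone Mpp2 went from 0.638 and 0.579 to 37 and 33.9 CPM and Arrdc3 from 2.3 and 5.26 to 39.6 and 37.1 CPM. Mpp2, Wipi1, Ddit4 and Fam214b had log2 fold changes of 5.85, 4.10, 4.41 and 3.61 in monoculture against 5.68, 3.84, 4.06 and 3.79 in co-culture, so their rise was about as large without the partner cells. Arrdc3 and Kcnk2 had 3.35 and 2.97 in monoculture against 4.90 and 3.79 in co-culture, and neither difference was called.

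Most of the response was shared with BV2 cells grown alone. Of the 2861 genes higher by at least 2-fold in co-culture, 2366 were also called higher in monoculture and 2 called lower. Of the 2220 lower by at least 2-fold, 1903 were also called lower and 2 called higher. Over all 14432 tested genes, 4455 were called higher and 4476 lower in monoculture. The difference between the cultures was called for 316 genes, with 167 differences above 0, of which 51 were in GL261-high genes, and 149 below 0, of which 8 were GL261-high. These counts depend on single libraries, since 59 differences were called without the second normoxic co-culture library, 147 without the first, and 414 and 452 without the first and the second hypoxic one. Without a monoculture library they numbered 82 (first hypoxic), 682 (second hypoxic), 235 (first normoxic) and 66 (second normoxic). Among genes that were not GL261-high and were above the expression limit (a log2 of at least 4 for the mean CPM in co-culture), the largest differences above 0 were in Aldh1l2, Wars, Ptgs2, Pdia4, Tfrc and Hsp90b1. Aldh1l2, a mitochondrial folate enzyme, rose from 16.1 and 15 to 232 and 284 CPM in co-culture and from 43.9 and 29.6 to 158 and 230.00 CPM in monoculture. Wars, the tryptophan tRNA synthetase, rose from 138 and 129.9 to 319.7 and 402 CPM in co-culture and stood at 164 and 155 and 125 and 172 CPM in monoculture (log2 fold change -0.10, not called). Ptgs2 in monoculture went from 9.69 and 15.9 to 41.3 and 44.7 CPM. Tfrc, the transferrin receptor, fell in both cultures, but from 277 and 415 to 95.5 and 93.7 CPM in monoculture against 267 and 232 to 225 and 117 CPM in co-culture. Its fall in co-culture was not called without the first normoxic or the second hypoxic library, by DESeq2, or with genes under a mean CPM of 5 dropped. The difference for Tfrc was called with all 4 co-culture libraries and without the second hypoxic one, but not when any of the other 3 was left out, and that for Ptgs2 was not called without the first hypoxic or the second normoxic one. Without the first hypoxic or the second normoxic monoculture library neither was called, and Tfrc was not called without the second hypoxic one. The Tfrc difference was also lost by DESeq2, with DESeq2 size factors, with genes under a mean CPM of 5 dropped and with GL261 counts subtracted. Aldh1l2 and Wars were called whichever of the 8 libraries was left out.

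Under the same expression limit the largest differences below 0 were in Zfp36, Cd72, Lilrb4a, Fxyd2, Btg2 and Apobec1. Zfp36, tristetraprolin, which destabilises cytokine messenger RNAs, stood at 35.1 and 46.3 and 50.6 and 38.3 CPM in co-culture with overlapping groups, and rose from 17.9 and 24 to 75.8 and 76.3 CPM in monoculture. Cd72, an inhibitory receptor, stood at 21.9 and 21.3 and 26.1 and 21.8 CPM in co-culture and rose from 15.3 and 13.9 to 53 and 49.4 CPM in monoculture, though 41.6% of its exon bases overlap another gene. Btg2, an antiproliferative gene, rose in both, from 18.1 and 24.5 to 91.8 and 52 CPM in co-culture and from 10.1 and 12.3 to 95.7 and 108 CPM in monoculture. Lilrb4a, an inhibitory receptor of myeloid cells, rose from 35.6 and 25.3 to 61.2 and 48.1 CPM in co-culture and from 12.3 and 13.5 to 56.2 and 81.6 CPM in monoculture, with 42.2% of its sequence shared with other genes. Both hypoxic monoculture libraries lay above both hypoxic co-culture libraries for Zfp36, Cd72 and Btg2, while those of Lilrb4a overlapped. Apobec1 fell in both cultures, in monoculture from 54.7 and 57.5 to 14.4 and 11.9 CPM. All 5 immediate early or mRNA decay genes with a called difference (Zfp36, Fos, Junb, Nr4a1 and Dusp2) had the lower log2 fold change in co-culture, and of these Fos and Nr4a1 are GL261-high. Without the second normoxic co-culture library 3 of the 5 were called, and 3 to 5 with a monoculture library left out. Zfp36, Fos and Nr4a1 were called whichever of the 8 libraries was left out, and so were Cd72, Lilrb4a and Apobec1, while Btg2 was not called without the second normoxic co-culture or either normoxic monoculture library, and Fxyd2 not without the second normoxic co-culture one.

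**Figure D4:**
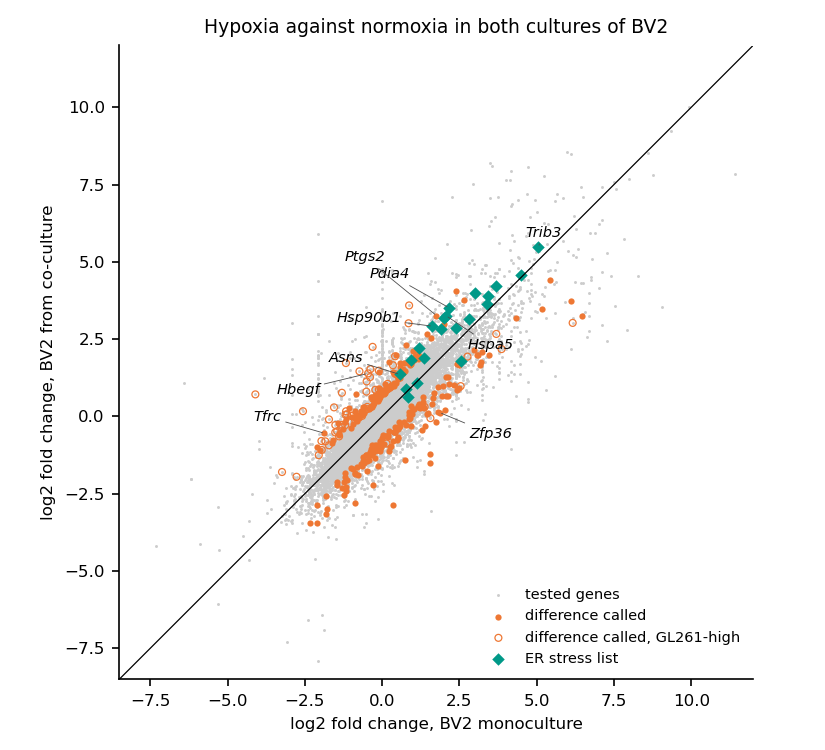
Log2 fold change, hypoxia over normoxia, of each tested gene in BV2 monoculture (horizontal) and in BV2 from co-culture (vertical), grey for all genes, orange where the difference between cultures was called, open orange for GL261-high genes among these, green diamonds for the stress response list and a line of equal change. Several ER chaperones lie above the line (Pdia4 at 2.16 and 3.52) and Zfp36 (1.86 and 0.12) lies below it.

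Bone marrow-derived macrophages from co-culture with the same glioma line gave a smaller number of called genes, 9.67% of 14806 tested genes higher by at least 2-fold and 7.26% lower by at least 2-fold. The tables were normalised apart and differ in replicate number, seeding ratio and serum, and the difference between the cell types was not tested. Replicates from co-culture also lay further apart in BMDM. The chi-square of replicate pairs against counting noise, per gene, was 26.8 to 72.6 in hypoxia and 28.9 to 40.3 in normoxia. In BV2 from co-culture it was 15.8 and 8.60. In monoculture, whose libraries shared the fits, replicates did not lie further apart in BMDM. There the value in hypoxia and normoxia was 17.7 and 16.0 in BMDM and 19.0 and 28.5 in BV2. The GL261 share was not measured in BMDM. Of the 13175 genes tested in both, 857 were higher by at least 2-fold in both, or 34.6% of the 2480 in BV2 and 68.7% of the 1247 in BMDM. For lower genes 584 were shared, or 29.1% of the 2008 in BV2 and 63.1% of the 925 in BMDM. Log2 fold changes were 5.55 in BV2 and 5.60 in BMDM for Ero1l, 4.72 and 5.15 for Ndrg1, and 3.25 and 3.15 for Hspa5. Genes at least 2-fold higher in BV2 and at least 2-fold lower in BMDM numbered 24, and those the other way 15. Itgav, an integrin, and Mertk, a receptor for dying cells, had values of 1.63 and 1.87 in BV2 against -1.07 and -1.09 in BMDM. Egr3 had -1.29 in BV2 against 5.01 in BMDM. Several BV2 changes had no like value in BMDM, with Cdkn1a at 3.63 against 0.44 and Vsir at 2.76 against 0.29. These 5 genes were chosen for their values.

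**Figure D5:**
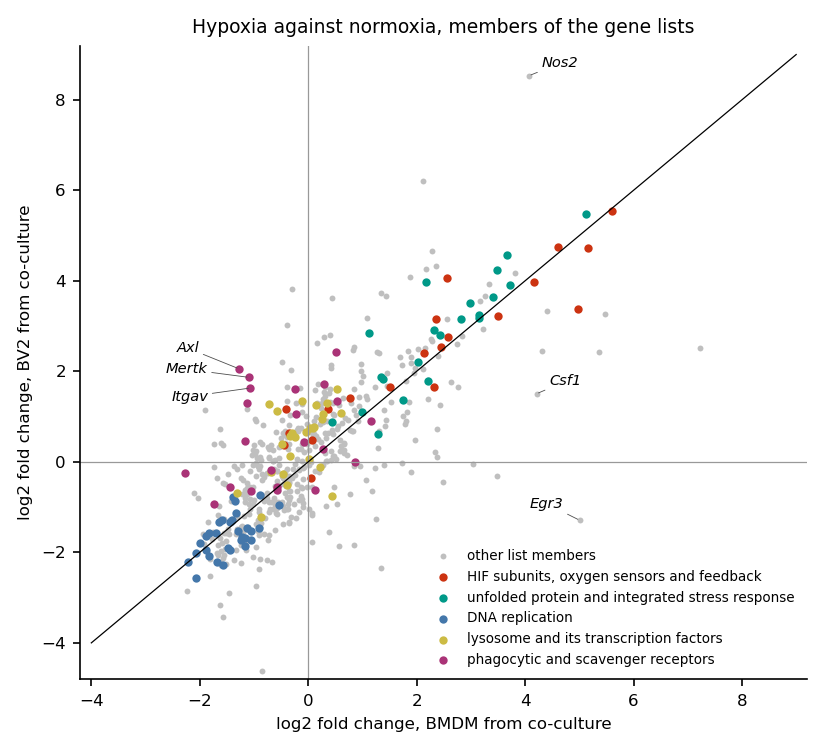
Log2 fold change, hypoxia over normoxia, of 571 list members tested in both cell types, in co-cultured BMDM (horizontal) and co-cultured BV2 (vertical), with 5 lists coloured, the others grey and a line of equal change. DNA replication genes lie below 0 on both axes and ER stress genes above 0 on both, with Hspa5 at 3.15 and 3.25.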

How the data were processed

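RNA was sequenced from BV2, GL261 and BMDM cultures. Per the labels' protocols, glyoxal-fixed cells gave poly(A) RNA for stranded paired-end libraries. The authors deposited unnormalised counts of reads for 55487 Ensembl genes. The submitters' processing notes name build mm10, Trimmomatic 0.36, STAR 2.6, Picard 2.17.1, SAMtools, HTSeq 0.9.1 and deepTools. Annotation and strand use in counting are not given in the sources used here, so overlapping genes and genes with near copies are uncertain. Symbols (55141 identifiers matched) and positions are from GENCODE M21 (GRCm38).

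Counts of the 8 BV2 libraries (2 per group) were fitted together in edgeR 4.0.16 (R 4.3.3) with trimmed-mean (TMM) scaling, filterByExpr (minimum count 10, minimum total 15) and the quasi-likelihood F test, with Benjamini-Hochberg adjustment over all genes tested and a threshold of 0.05. The difference between cultures was an interaction term. BMDM co-culture libraries were fitted in their own table, together with its BMDM monoculture libraries, which share the filter, scaling and estimate of spread. The standard error (SE) is the size of the log2 fold change divided by the square root of F, and CPM carry the TMM factors. DESeq2 1.42.0 served as an alternative. No libraries were identical, and replicates differed by more than sampling noise. The scripts were tested on simulated data.

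Genes were called GL261-high at a 4-fold ratio of (CPM + 0.5) in monocultures. The GL261 share divides co-culture by GL261 monoculture CPM and takes the median of 230 genes (20 CPM or more and a 100-fold ratio at both oxygen levels). The share of a gene's level supplied by GL261 RNA multiplies that share by its GL261 monoculture CPM, so GL261 levels in co-culture do not enter it. Named genes were the 12 largest rises and falls (not GL261-high, groups apart, log2 of the mean CPM 4 or more, predicted genes left out), per list the 3 largest called changes each way and the most abundant member, under the same expression limit the 6 GL261-high genes that rose most and the 6 largest culture differences each way, and markers. Some genes that the rule selected are not reported here. Others are named to explain a count or compare cell types. The members and the 32 lists (701 entries, all matched) were chosen with earlier results of these data known. Count floors cover counting error only. The panobinostat libraries were not used here.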

Additional observations from a re-analysis of the deposited data

Results flagged for a closer look

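For 12 genes the effect of hypoxia differed between BV2 from co-culture and BV2 grown alone by a test of the difference itself (edgeR's quasi-likelihood test of the interaction, Benjamini-Hochberg adjusted over all genes tested, 2 libraries per group). They are the 6 largest differences each way among genes that are not GL261-high and whose mean CPM over the co-culture libraries had a log2 of at least 4, and their levels stand in the report. The difference is the log2 fold change in co-culture minus that in monoculture. Above 0 it was 1.65 for Aldh1l2 (SE 0.27, adjusted p = 0.0106), 1.53 for Wars (adjusted p = 0.00296), 1.51 for Ptgs2 (adjusted p = 0.0232), 1.36 for Pdia4 (adjusted p = 0.0141), 1.33 for Tfrc (adjusted p = 0.0433) and 1.29 for Hsp90b1 (adjusted p = 0.0141). Below 0 it was -1.74 for Zfp36 (SE 0.23, adjusted p = 0.00296), -1.66 for Cd72 (adjusted p = 0.00102), -1.57 for Lilrb4a (adjusted p = 0.0132), -1.47 for Fxyd2 (adjusted p = 0.0141), -1.44 for Btg2 (adjusted p = 0.0263) and -1.35 for Apobec1 (adjusted p = 0.00648). Fxyd2, a regulator of the sodium pump, stood at 47.1 and 72.2 CPM in normoxia and 76.5 and 114 CPM in hypoxia in co-culture, and at 29.8 and 30.9 and 141 and 127 CPM in monoculture. The GL261 share of transcripts, which was higher in the hypoxic co-culture libraries, would supply at most 4.45% of the hypoxic level of any of the 12 genes. That figure takes GL261 levels from monoculture, and levels in co-cultured GL261 cells, which may differ, were not used for it. With 1 co-culture library left out the call was lost for Tfrc (3 of the 4 libraries), Ptgs2 (the first hypoxic or the second normoxic), Fxyd2 (the second normoxic) and Btg2 (the second normoxic). With 1 monoculture library left out it was lost for Tfrc (3 of the 4 libraries), Ptgs2 (the first hypoxic or the second normoxic), Hsp90b1 (the first hypoxic) and Btg2 (either normoxic). Aldh1l2, Wars, Pdia4, Zfp36, Cd72, Lilrb4a and Apobec1 were called whichever library was left out.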

How the results depend on the processing

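The test of hypoxia against normoxia in BV2 from co-culture called 9707 genes, between 7507 and 9952 under the other settings (the Wald test of DESeq2, edgeR with DESeq2 size factors, low counts kept, genes under a mean CPM of 5 dropped, only the 2 groups fitted, GL261-high genes left out, GL261 counts subtracted), and 8481 to 8927 with a library left out. Genes higher by at least 2-fold numbered 1528 with the filter at a mean CPM of 5, which tests fewer genes, against 2861.

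The difference of the hypoxia effect between BV2 from co-culture and BV2 monoculture was less stable. In place of 316 genes (167 above 0 and 149 below 0) DESeq2 called 676 (357 and 319), no filter on low counts 981 (283 and 698), the filter at a mean CPM of 5 362 (113 and 249), leaving out GL261-high genes 239 (94 and 145) and subtracting GL261 counts 184 (72 and 112). With 1 of the 8 libraries left out the count ran from 59 to 682, with 13 to 200 above 0 and 32 to 482 below 0. It was below 316 without either normoxic library of either culture and without the first hypoxic monoculture library. Leaving out monoculture libraries was chosen after seeing the data. The lone library left in a group is then assumed to vary like those of the other groups. The cause was not tested. The labels give the groups the same replicate numbers and state no pairing. With the replicate block the difference was called for 467 genes (241 above 0 and 226 below 0) and hypoxia against normoxia in BV2 from co-culture for 9741 genes. Deviations of same-numbered co-culture libraries correlated at 0.0871, from 2 pairs.

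Log2 fold changes near 0 changed sign with a library left out, from -0.17 to 0.35 for Zfp36, -0.063 to 0.212 for Cd72 and -0.26 to 0.18 for Nr4a1. Over all settings 706 list counts stayed within 1.5 times the reported count and 62 did not. The number of libraries, 2 per group, limits the precision of every value, and genes under about 3 counts per library cannot be compared.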

Other observations

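Kdr, a receptor for Vegfa, was the gene that carried the summed level of other cell types, at 15.3 and 13.7 CPM in normoxia and 64 and 66.8 CPM in hypoxia in co-culture and 27.3 and 34 and 59.6 and 80.5 CPM in monoculture (difference of log2 fold changes 0.98, SE 0.22, adjusted p = 0.031). GL261 monoculture had 0.0278 CPM of it in hypoxia. Tlr7, a sensor of RNA in endosomes, stood at 71.1 and 70.3 and 37.2 and 28.3 CPM in co-culture and at 103 and 109 and 90.4 and 110.2 CPM in monoculture (difference -1.02, SE 0.19, adjusted p = 0.0178). Cx3cr1, the fractalkine receptor, stood at 2.56 and 2.56 and 1.06 and 0.875 CPM in co-culture and at 0.85 and 1.74 and 1.83 and 2.47 CPM in monoculture (difference -2.14, SE 0.52, adjusted p = 0.0435). The difference was not called for any of the 3 without the second normoxic co-culture library, for Kdr and Cx3cr1 without either hypoxic one, and for Cx3cr1 without the first normoxic one. Without 1 monoculture library it was lost for Kdr (the first hypoxic or the second normoxic) and Cx3cr1 (either hypoxic or the first normoxic). It was also lost for Cx3cr1 with GL261 counts subtracted. These 3 genes were chosen after their values were seen.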
